A study of Mus musculus with 24 samples.

Results

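A set of 10 genes of the regulatory T cell program and of immune checkpoints was followed through ectopic endometriosis lesions, eutopic uterus and sham uterus of mice. The genes were Foxp3, Ctla4, Il2ra, Ikzf2, Tnfrsf18, Icos, Tigit, Pdcd1, Lag3 and Cd274. They were taken by gene symbol from the deposited table of read counts, where all 10 were found among 56691 genes. All 10 passed the filter on low counts in the main fits, but Foxp3 failed it in fits of only the eutopic and sham libraries of 3 months. Each gene was also set against Cd3e, which encodes the CD3 epsilon chain of the T cell receptor complex and serves as a measure of T cell RNA in the same library.

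The study measured bulk RNA in 24 libraries, 4 in each of 6 groups, to follow the transcriptome as endometriosis-related infertility progresses. Mice on a mixed C57BL/6 and SV129 background were operated on at 8 weeks of age, mated 1 or 3 months later and sampled on pregnancy day 3.5. Ectopic lesions and the eutopic uterus came from mice with surgically induced endometriosis, and sham uterus from mice that had only sham surgery. The 1 month mice with endometriosis were fertile, those of 3 months were subfertile, and sham mice were fertile at both times. By the sample labels, lesions carried Pgrcre/+ (Cre recombinase driven from the progesterone receptor gene) together with the Rosa26mTmG/+ membrane reporter, whereas eutopic and sham uterus carried Rosa26mTmG/+ alone. The series description instead gives both alleles to all mice with endometriosis, so the genotype of the eutopic libraries is uncertain, and in the labels the Cre allele and the lesion cannot be told apart. The labels name no animal for any library, so the p-values measure only the spread between these libraries.

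Regulatory T cells are CD4 T cells that restrain other immune cells, and the transcription factor FOXP3 sets and maintains their identity. They carry the high-affinity interleukin 2 receptor and the receptors CTLA-4, GITR, ICOS and TIGIT, several of which are also found on activated conventional T cells. PD-1 and LAG-3 are inhibitory receptors of chronically stimulated T cells, and PD-L1 is the PD-1 ligand displayed by myeloid, stromal and epithelial cells. In the uterus, regulatory T cells are known for their part in tolerance of the fetus.

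The count table gives the genes by Ensembl ID. Foxp3 is ENSMUSG00000039521.14 on chromosome X, Cd274 is ENSMUSG00000016496.8 on chromosome 19, Tigit is ENSMUSG00000071552.6 on chromosome 16 and Il2ra is ENSMUSG00000026770.6 on chromosome 2. Ctla4 (ENSMUSG00000026011.14), Icos (ENSMUSG00000026009.15), Ikzf2 (ENSMUSG00000025997.14) and Pdcd1 (ENSMUSG00000026285.9) lie on chromosome 1, Tnfrsf18 (ENSMUSG00000041954.19) on chromosome 4 and Lag3 (ENSMUSG00000030124.3) on chromosome 6. In GENCODE vM21, 3 genes on the other strand overlap Foxp3 (Ppp1r3f, Gm36995 and Ccdc22), as does the long noncoding RNA Flicr on its own strand. No source used here gives the use of strand in counting, so reads of overlapping exons cannot be assigned to one gene with certainty.

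Promoter sequences are shown for the 3 genes on which the results turn most, because these genes were higher together in lesions. They are the 250 bases upstream of the annotated start, from RefSeq on GRCm38.p6, which is not the mm39 build named in the submitters' processing notes. Entries were found for 7 of the 10 genes and not for Icos, Ikzf2 or Lag3. Foxp3 has 2 entries, at chrX:7579426-7579675 and chrX:7580233-7580482, Ctla4 lies at chr1:60908775-60909024 and Cd274 at chr19:29367188-29367437, all on the plus strand. Capitals mark matches on either strand to the NFAT core GGAAA, the STAT motif TTCNNNGAA, the IRF core GAAANNGAA or the AP-1 motif TGANTCA.
Foxp3, first start: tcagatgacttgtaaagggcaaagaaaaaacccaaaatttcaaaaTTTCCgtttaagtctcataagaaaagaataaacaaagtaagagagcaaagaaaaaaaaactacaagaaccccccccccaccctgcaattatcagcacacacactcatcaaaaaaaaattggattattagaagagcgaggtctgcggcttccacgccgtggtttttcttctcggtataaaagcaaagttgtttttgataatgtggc
Foxp3, second start: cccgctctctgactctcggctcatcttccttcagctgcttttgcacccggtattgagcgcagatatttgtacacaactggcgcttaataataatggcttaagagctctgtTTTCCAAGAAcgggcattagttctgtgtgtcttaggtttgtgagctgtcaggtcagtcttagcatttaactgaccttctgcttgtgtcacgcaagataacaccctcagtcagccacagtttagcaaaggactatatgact
Ctla4: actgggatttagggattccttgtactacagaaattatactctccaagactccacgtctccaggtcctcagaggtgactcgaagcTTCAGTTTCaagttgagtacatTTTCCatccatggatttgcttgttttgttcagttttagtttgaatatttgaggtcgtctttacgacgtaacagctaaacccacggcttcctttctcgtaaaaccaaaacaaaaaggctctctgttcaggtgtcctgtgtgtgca
Cd274: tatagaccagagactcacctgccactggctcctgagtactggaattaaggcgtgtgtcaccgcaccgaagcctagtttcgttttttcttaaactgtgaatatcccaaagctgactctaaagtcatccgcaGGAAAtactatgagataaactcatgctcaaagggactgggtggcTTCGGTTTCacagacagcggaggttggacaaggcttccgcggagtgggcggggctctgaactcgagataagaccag
The NFAT core had a match in 7 of 7 genes and in 55.6% of 32851 annotated promoters of the same length. STAT matches were found for 2 of 7 genes (Foxp3 at its second start and Tnfrsf18) and in 7.02% of all promoters, and IRF core matches for 2 of 7 (Ctla4 and Cd274) and in 7.13% of all. AP-1 matches were found for 0 of 7 genes and in 6.75% of all promoters. The STAT match at the second Foxp3 start overlaps an NFAT core match. These matches describe letters in a window and are not evidence of binding.

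Library depth ranged between 4.51e+07 and 5.94e+07 reads assigned to genes. Lesion library 1 at 3 months stood apart from the other 3 lesion libraries of that time. Its 6 ovary markers summed to 22990 CPM (reads scaled to the size of the library), against 11.8 to 15.8 CPM in the eutopic libraries of its time, and its 21 core T cell genes to 73.7 CPM, against 557 to 1425 CPM in the other 3 lesion libraries and 92.7 to 175 CPM in eutopic uterus. Its 6 markers of uterine epithelium and stroma summed to 191 CPM, and those of lesion library 2 at 3 months to 145 CPM, against 1564 to 1852 CPM in eutopic uterus. Lesion libraries 2, 3 and 4 at 3 months held 45929, 14929 and 7693 CPM of 6 skeletal muscle markers, against 97.0 to 163 CPM in eutopic uterus. Lesion library 2 at 1 month held 68934 CPM of 6 pancreas and liver markers, against 4.31 to 6.38 CPM in eutopic uterus. The liver gene among them, Alb, had only 15 reads in that library and 4 to 14 in eutopic uterus at 1 month. The high sum thus came from the pancreas genes. The part of these tissues in the results was not tested, and values without the 3 libraries that stood furthest apart are given below.

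Levels of nearly every one of the 10 genes were higher in lesions than in the eutopic uterus of the same time. Fold changes come from edgeR's quasi-likelihood test on counts, with Benjamini-Hochberg adjustment over all 22249 genes tested and a threshold of 0.05 on the adjusted p. At 1 month, 8 of the 10 genes were called higher in lesions and 0 lower, where 12.0% of all genes were called higher. At 3 months, 9 of 10 were called higher and 0 lower, against a background of 23.4% of all genes. The median log2 fold change of the 10 genes was 2.72 at 1 month and 3.25 at 3 months, while that of all genes tested was -0.01 and 0.04. In bulk tissue, more cells of a type and more RNA per cell cannot be told apart. The genes were chosen with earlier results of these data known, so their shares describe them and do not test them as a set.

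**Figure D1:**
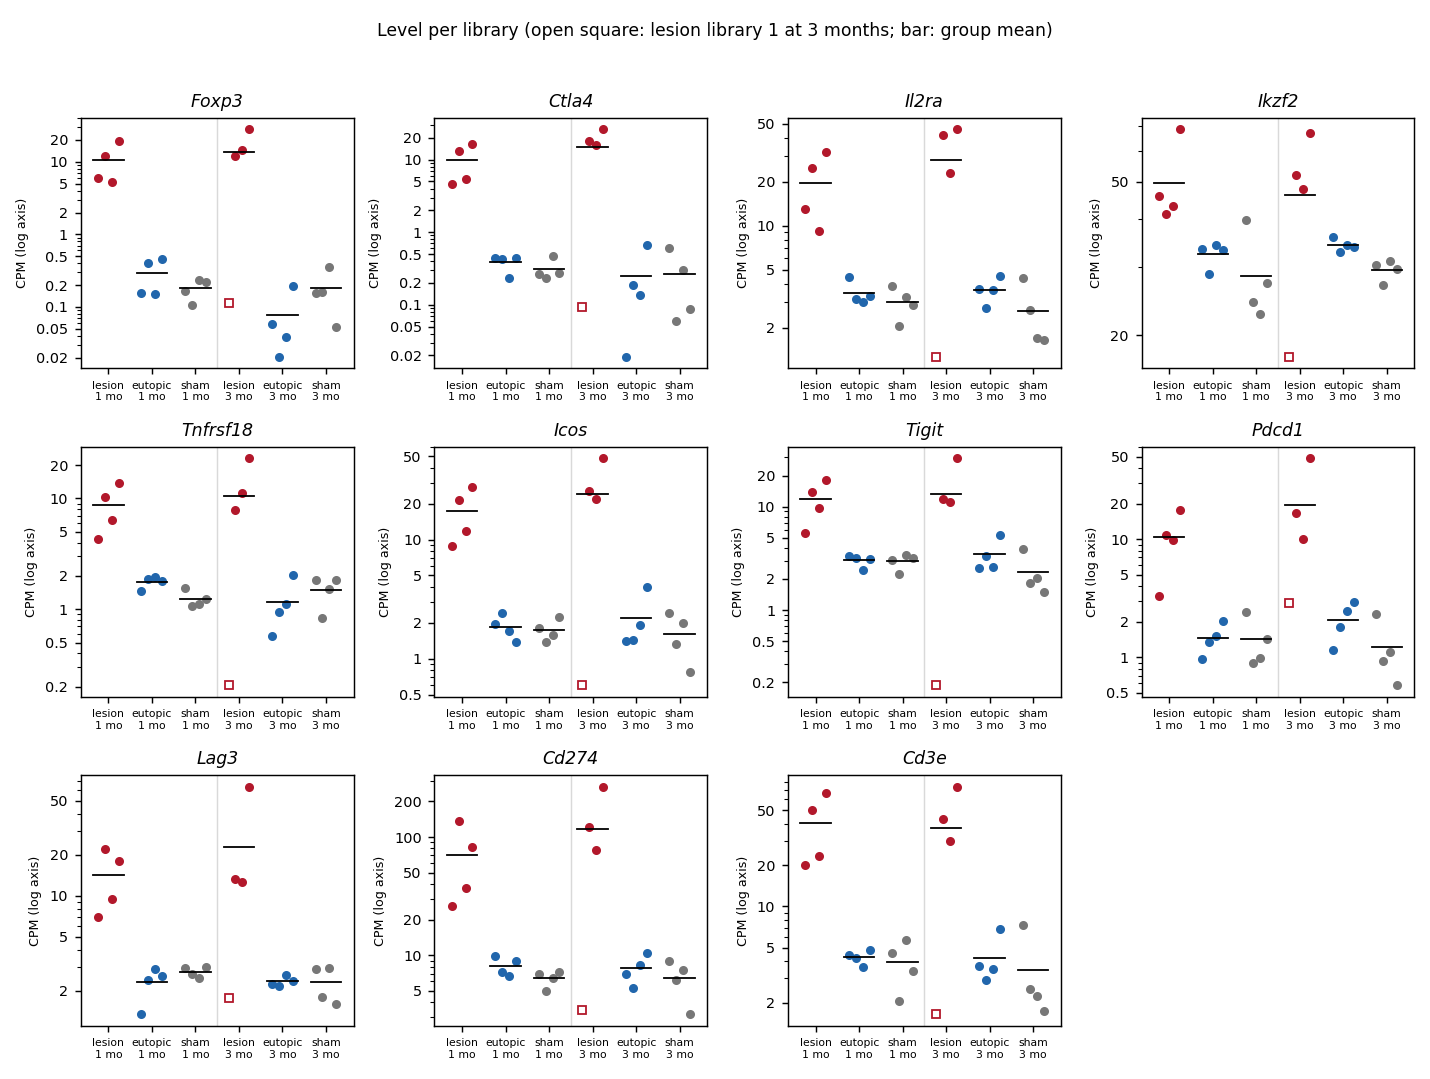
Level of each of the 10 genes and of Cd3e, in CPM on a log axis, in 4 libraries per group of lesion (red), eutopic uterus (blue) and sham uterus (grey) at 1 and 3 months. Bars are group means, and the open square is lesion library 1 at 3 months, which lies within or below the eutopic range of its time for all 10 genes, while the other lesion libraries lie above every eutopic library of their time for all 10.

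Foxp3, the lineage-defining transcription factor of regulatory T cells, had the largest fold change of the 10 genes at both times. At 1 month it measured 5.93, 12.1, 5.22 and 19.2 CPM in lesions, against 0.158, 0.407, 0.149 and 0.453 CPM in eutopic uterus. At 3 months it measured 0.112, 11.9, 14.6 and 28.2 CPM in lesions, against 0.0578, 0.0208, 0.0386 and 0.195 CPM in eutopic uterus. At 1 month the groups were far apart, and at 3 months lesion library 1 fell inside the eutopic range while the other 3 lesion libraries lay well above it. Sham uterus held 0.166, 0.106, 0.232 and 0.220 CPM at 1 month and 0.157, 0.161, 0.351 and 0.0526 CPM at 3 months. Uterine levels rested on few reads, with 3, 1, 2 and 11 Foxp3 reads in the 4 eutopic libraries at 3 months, against 6, 512, 733 and 1335 reads in lesions. Foxp3 was higher in lesions than in eutopic uterus by 5.17 ± 0.97 log2 units (SE, n = 4 each, edgeR adjusted p = 0.00196) at 1 month and by 7.38 ± 1.10 (edgeR adjusted p = 5.41e-05) at 3 months. Without lesion library 1 the 3 month fold change was 7.79 log2 units, and over each library left out in turn it ran between 6.76 and 8.36. With a replicate block in a fit of only the compared groups it was 6.88, and the call was lost (edgeR adjusted p = 0.0789).

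Ctla4, which encodes an inhibitory receptor that competes with CD28 for CD80 and CD86, was likewise higher in lesions at both times. At 1 month it measured 4.57, 13.3, 5.46 and 16.4 CPM in lesions, against 0.438, 0.424, 0.232 and 0.436 CPM in eutopic uterus. At 3 months lesions held 0.0936, 18.0, 15.9 and 26.4 CPM, against 0.0193, 0.187, 0.135 and 0.657 CPM in eutopic uterus. Lesion library 1 at 3 months again lay within the eutopic range, and all other lesion libraries lay above it. Sham uterus ranged between 0.230 and 0.465 CPM at 1 month and between 0.0605 and 0.611 CPM at 3 months. The fold change of lesions against eutopic uterus was 4.69 ± 1.04 log2 units at 1 month (SE, n = 4 each, edgeR adjusted p = 0.00493) and 5.89 ± 1.10 at 3 months (edgeR adjusted p = 0.000364).

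Il2ra, the alpha chain of the high-affinity interleukin 2 receptor, rose less steeply from a higher uterine level. Lesions held 13.0, 24.9, 9.21 and 31.7 CPM at 1 month, against 4.43, 3.14, 3.00 and 3.32 CPM in eutopic uterus. At 3 months lesions held 1.27, 41.9, 22.8 and 45.9 CPM, against 3.66, 2.72, 3.61 and 4.51 CPM in eutopic uterus. Lesion library 1 at 3 months lay below every eutopic library. The fold change was 2.50 ± 0.62 log2 units at 1 month (edgeR adjusted p = 0.00927) and 2.94 ± 0.63 at 3 months (edgeR adjusted p = 0.00114).

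Ikzf2, which encodes the zinc finger factor Helios and is expressed in many regulatory T cells but also outside the T cell lineage, differed least. Lesions held 46.0, 41.4, 43.3 and 68.6 CPM at 1 month, against 33.5, 28.9, 34.2 and 33.3 CPM in eutopic uterus. At 3 months lesions held 17.6, 52.3, 47.9 and 66.9 CPM, against 36.0, 33.0, 34.2 and 33.9 CPM in eutopic uterus. Every lesion library at 1 month lay above every eutopic library, yet the differences of 0.62 ± 0.26 log2 units at 1 month (edgeR adjusted p = 0.0933) and 0.43 ± 0.26 at 3 months (edgeR adjusted p = 0.193) did not pass the threshold. Whether Ikzf2 passed depended on the test and on the libraries used. The 3 month difference passed without lesion library 1 (0.70 log2 units, edgeR adjusted p = 0.00255) and, with all libraries, by limma voom with sample weights (0.58, adjusted p = 0.0393). At 1 month it passed by limma voom (0.64, adjusted p = 0.00217) and in an edgeR fit of only the compared groups (0.60, adjusted p = 0.0186). Among the 10 genes Ikzf2 had the highest uterine CPM before length was taken into account, with 22.7 to 39.7 CPM in sham uterus over both times.

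Tnfrsf18 and Icos encode the costimulatory receptors GITR and ICOS. Tnfrsf18 measured 4.28, 10.4, 6.46 and 13.7 CPM in lesions at 1 month, against 1.45, 1.87, 1.94 and 1.79 CPM in eutopic uterus. Its 3 month values were 0.206, 7.92, 11.2 and 23.3 CPM in lesions, against 0.578, 0.955, 1.12 and 2.04 CPM in eutopic uterus. The groups did not overlap at 1 month, and at 3 months only lesion library 1 lay below the eutopic range. Tnfrsf18 was higher in lesions by 2.30 ± 0.70 log2 units at 1 month (edgeR adjusted p = 0.0256) and by 3.18 ± 0.73 at 3 months (edgeR adjusted p = 0.00186). The 1 month call did not hold without lesion library 2, without lesion library 4 or without any one of the 4 eutopic libraries, with edgeR adjusted p between 0.0545 and 0.0801.

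Icos measured 8.85, 21.4, 11.8 and 27.6 CPM in lesions at 1 month, against 1.95, 2.41, 1.71 and 1.39 CPM in eutopic uterus. At 3 months it measured 0.599, 25.7, 21.9 and 48.4 CPM in lesions, against 1.41, 1.43, 1.93 and 3.98 CPM in eutopic uterus. The pattern over libraries was that of Tnfrsf18. Icos was higher in lesions by 3.22 ± 0.72 log2 units at 1 month (edgeR adjusted p = 0.00519) and by 3.46 ± 0.73 at 3 months (edgeR adjusted p = 0.00094).

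Tigit encodes an inhibitory receptor of T cells and natural killer cells that binds the poliovirus receptor. Lesions held 5.59, 13.8, 9.78 and 18.0 CPM at 1 month, against 3.35, 3.20, 2.42 and 3.10 CPM in eutopic uterus. At 3 months lesions held 0.187, 11.8, 11.2 and 29.6 CPM, against 2.52, 3.36, 2.63 and 5.33 CPM in eutopic uterus. All lesion libraries at 1 month lay above all eutopic libraries, although the 1 month difference of 1.97 ± 0.70 log2 units missed the threshold (edgeR adjusted p = 0.0513). At 3 months Tigit was higher in lesions by 1.93 ± 0.70 log2 units (edgeR adjusted p = 0.0331). Both calls stood near the threshold. Tigit passed at 1 month with DESeq2 (adjusted p = 0.0171), with limma voom (0.000429), in an edgeR fit of only the compared groups (0.0028) and without lesion library 1 (edgeR adjusted p = 0.0443). It did not pass at 3 months without lesion library 4 or without eutopic library 1, 2 or 3, with edgeR adjusted p between 0.0705 and 0.188.

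Pdcd1 encodes PD-1, and its ligand PD-L1 is the product of Cd274. Pdcd1 measured 3.28, 10.8, 9.75 and 17.5 CPM in lesions at 1 month, against 0.964, 1.36, 1.51 and 2.01 CPM in eutopic uterus. At 3 months it measured 2.88, 16.6, 10.1 and 48.7 CPM in lesions, against 1.16, 1.81, 2.47 and 2.91 CPM in eutopic uterus. Lesion library 1 at 3 months lay just below the highest eutopic library, and lesion library 4 was far above the rest. Pdcd1 was higher in lesions by 2.82 ± 0.66 log2 units at 1 month (edgeR adjusted p = 0.0064) and by 3.23 ± 0.67 at 3 months (edgeR adjusted p = 0.000829).

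By group mean, Cd274 had the highest lesion level of the 10 genes in CPM at both times. It measured 26.3, 136, 37.1 and 82.3 CPM in lesions at 1 month, against 9.80, 7.21, 6.66 and 9.02 CPM in eutopic uterus. At 3 months it measured 3.44, 122, 77.0 and 266 CPM in lesions, against 6.88, 5.31, 8.30 and 10.4 CPM in eutopic uterus. The highest Cd274 value at 1 month was in lesion library 2, the one with pancreas RNA, and not in lesion library 4, which had the highest Foxp3. Cd274 was higher in lesions by 3.10 ± 0.72 log2 units at 1 month (edgeR adjusted p = 0.00632) and by 3.92 ± 0.75 at 3 months (edgeR adjusted p = 0.000429).

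Lag3 encodes an inhibitory receptor that binds MHC class II molecules. Lesions held 7.01, 22.0, 9.42 and 18.0 CPM at 1 month, against 1.35, 2.42, 2.91 and 2.56 CPM in eutopic uterus. At 3 months lesions held 1.78, 13.2, 12.7 and 63.5 CPM, against 2.24, 2.18, 2.61 and 2.38 CPM in eutopic uterus. Lesion library 4 at 3 months held more Lag3 than the other 3 lesion libraries of its time together. The fold change was 2.61 ± 0.63 log2 units at 1 month (edgeR adjusted p = 0.00788) and 3.28 ± 0.65 at 3 months (edgeR adjusted p = 0.000573).

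Counted by samples, every lesion library lay above every eutopic library for 10 of 10 genes at 1 month, as it did for 17.5% of all genes tested. At 3 months that held for 0 of 10 genes and 10.1% of all genes, and with lesion library 1 set aside for 10 of 10 genes and 22.8% of all. When lesion library 1 at 3 months was left out of the fit, 10 of 10 genes and 25.1% of all genes were called higher at 3 months, and without both lesion libraries 1 and 2, 10 of 10 and 21.0% of all. Without lesion library 2 at 1 month, 7 of 10 and 6.54% of all genes were called higher at 1 month. An edgeR fit of only the compared groups called 5 of 10 higher at 3 months, against 9.44% of all genes. Those 5 were Foxp3, Ctla4, Pdcd1, Lag3 and Cd274, and Il2ra, Tnfrsf18, Icos and Tigit lost their call, with edgeR adjusted p between 0.0522 and 0.216.

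**Figure D2:**
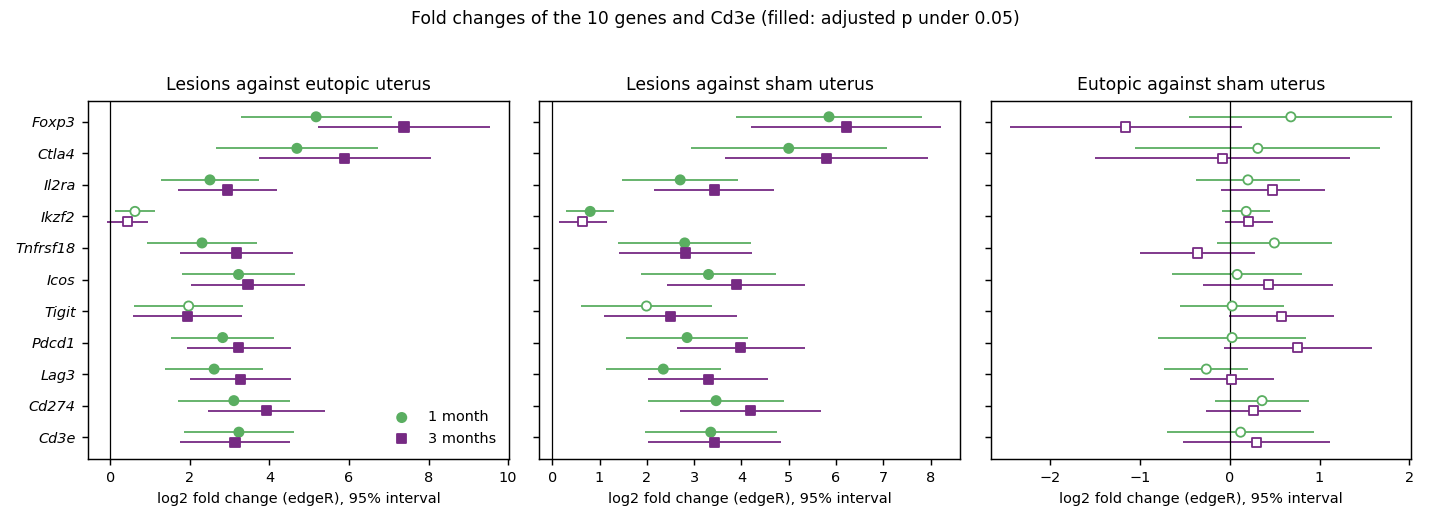
Log2 fold changes with 95% intervals from edgeR for the 10 genes and Cd3e, for lesions against eutopic uterus (left), lesions against sham uterus (middle) and eutopic against sham uterus (right), at 1 month (green circles) and 3 months (purple squares). Filled points have an adjusted p under 0.05, and in lesions Foxp3 and Ctla4 lie furthest to the right, with Ikzf2 nearest to 0.

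Against sham uterus, with the same lesion libraries in the comparison, 9 of 10 genes were called higher at 1 month and 9.46% of all genes were. At 3 months 9 of 10 were called higher, against 23.2% of all genes. The gene not called was Tigit at 1 month (1.99 ± 0.70 log2 units, edgeR adjusted p = 0.0599) and Ikzf2 at 3 months (0.64 ± 0.26, edgeR adjusted p = 0.0519). Foxp3 was higher in lesions than in sham uterus by 5.85 ± 1.01 log2 units at 1 month (edgeR adjusted p = 0.00153) and by 6.22 ± 1.02 at 3 months (edgeR adjusted p = 0.000134). With a replicate block in a fit of only the compared groups, the 3 month value was 5.46, and the call was lost (edgeR adjusted p = 0.167). For Ctla4 the fold changes were 5.0 ± 1.06 (edgeR adjusted p = 0.00494) and 5.81 ± 1.10 (edgeR adjusted p = 0.000395), and for Cd274 3.46 ± 0.73 (edgeR adjusted p = 0.00499) and 4.19 ± 0.76 (edgeR adjusted p = 0.000281). Across the other genes called, fold changes ran between 0.80 and 3.99 log2 units. The lowest, Ikzf2 at 1 month with 0.80 ± 0.26 (edgeR adjusted p = 0.0415), lost its call without lesion library 1, 2 or 4 or sham library 2, 3 or 4. Lag3 at 1 month (2.35 ± 0.62, edgeR adjusted p = 0.0157) lost it without lesion library 2 (edgeR adjusted p = 0.0558) or sham library 3 (0.0505), and Tigit at 3 months (2.51 ± 0.72, edgeR adjusted p = 0.00847) without lesion library 4 (0.0507). In an edgeR fit of only the compared groups, Tnfrsf18, Tigit and Lag3 lost their 3 month call against sham uterus (adjusted p = 0.1, 0.141 and 0.0541). Every lesion library lay above every sham library for 10 of 10 genes at 1 month and 16.4% of all genes. Lesion libraries 2 to 4 at 3 months did so for 10 of 10 and 21.3% of all genes.

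Between the lesions of the 2 times, the genes did not separate. Of the 10 genes, edgeR called 0 in lesions at 3 months against lesions at 1 month, where it called 10.9% of all genes. Foxp3 differed by 0.37 ± 0.80 log2 units, with a 95% interval of -1.19 to 1.93, so a difference in either direction is compatible with these libraries. Ctla4 differed by 0.61 ± 0.88 and Cd274 by 0.74 ± 0.67 log2 units, and the 10 genes ranged between -0.11 and 0.92. Lesion library 1 was again the lowest and lesion library 4 the highest of the 3 month lesions for Foxp3, Ctla4 and Cd274. Without lesion library 4 at 3 months, the Foxp3 difference was -0.26 and that of Cd274 -0.06 log2 units.

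The lesion-eutopic difference itself was compared between 3 months and 1 month as an interaction. By edgeR 0 of 10 genes changed with time, against 0.769% of all genes. The difference was larger at 3 months by 2.21 ± 1.27 log2 units for Foxp3 (95% interval -0.28 to 4.70), by 1.20 ± 1.31 for Ctla4 and by 0.82 ± 0.95 for Cd274, and the other 7 genes ranged between -0.19 and 0.87. For Foxp3 the value ranged between 1.59 and 3.20 log2 units as each library was left out in turn.

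Eutopic uterus of mice with endometriosis was set against sham uterus in a fit of the 16 uterine libraries, with 21208 genes tested. By edgeR 0 of 10 genes were called at 1 month, where 0.00943% of all genes were, and 0 of 10 at 3 months, where 0.0% were. Foxp3 differed by 0.68 ± 0.58 log2 units at 1 month (95% interval -0.45 to 1.81) and by -1.16 ± 0.66 at 3 months (95% interval -2.45 to 0.13). Ctla4 differed by 0.31 ± 0.70 and -0.08 ± 0.72, and Cd274 by 0.36 ± 0.27 and 0.27 ± 0.27 log2 units. All 10 genes ranged between -0.26 and 0.68 at 1 month and between -1.16 and 0.76 at 3 months. In these 2 comparisons, and in the 2 comparisons over time of lesions, 0 of 10 genes had an unadjusted edgeR p under 0.05, and DESeq2 and limma voom also called 0. Of all genes, 1020 (1 month) and 1012 (3 months) of 21208 had such a p in eutopic against sham uterus. For lesions over time 5768 of 22249 had it, and for the interaction 3297. DESeq2 called 14.8% and 3.69% of all genes in these last 2, and limma voom 4.54% and 2.1%. In eutopic against sham uterus each called at most 0.184%. The Foxp3 values rest on 1 to 27 reads per uterine library.

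By mean level the lesion groups came before the uterine groups for all 10 genes, while the order of the uterine groups differed between genes. Lesions of 3 months had the highest mean and lesions of 1 month the next for 9 of 10 genes, and Ikzf2 had these reversed. The 2 lesion groups did not differ beyond their spread, since Foxp3 averaged 13.7 ± 11.5 CPM in lesions at 3 months and 10.6 ± 6.49 CPM in lesions at 1 month (SD, n = 4 each). The uterine groups lay close together below them. Foxp3 averaged 0.292 ± 0.161 CPM in eutopic uterus and 0.181 ± 0.0576 CPM in sham uterus at 1 month (SD, n = 4 each). At 3 months it averaged 0.0782 ± 0.0796 CPM in eutopic uterus and 0.181 ± 0.124 CPM in sham uterus (SD, n = 4 each), so eutopic uterus at 3 months came last in the order of the 6 groups. For Cd274 the group means were 117 ± 111 CPM in lesions at 3 months and 70.3 ± 49.8 CPM in lesions at 1 month, with all 4 uterine group means between 6.36 and 8.17 CPM.

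Levels of different genes were compared per kilobase of exon, with lengths from GENCODE vM21. In lesions at 1 month, Cd274 had the highest mean of the 10 genes with 19.4 CPM per kb, then Tigit with 12.8 CPM per kb, and Foxp3 the lowest with 2.32 CPM per kb. Lesions at 3 months had the same first, second and last gene, with mean levels of 32.4, 14.4 and 2.99 CPM per kb. In eutopic uterus at 1 month, Tigit came first with 3.28 CPM per kb, then Ikzf2 with 2.80 and Cd274 with 2.26 CPM per kb, while Ctla4 and Foxp3 came last with 0.164 and 0.0637 CPM per kb. Foxp3 and Ctla4 thus had the lowest uterine levels of the 10 genes per length and the largest lesion fold changes.

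Cd3e gave the scale of T cell RNA. It measured 20.05, 49.9, 23.3 and 67.3 CPM in lesions at 1 month, against 4.43, 4.19, 3.66 and 4.81 CPM in eutopic uterus. At 3 months it measured 1.65, 43.5, 29.8 and 74.3 CPM in lesions, against 3.72, 2.91, 3.49 and 6.86 CPM in eutopic uterus. Cd3e was higher in lesions by 3.23 ± 0.71 log2 units at 1 month (edgeR adjusted p = 0.00479) and by 3.13 ± 0.71 at 3 months (edgeR adjusted p = 0.00165), with lesion library 1 at 3 months below every eutopic library. The 3 month call of Cd3e was lost in a fit of only the compared groups (3.15 log2 units, edgeR adjusted p = 0.0517). At 1 month the point estimates of Foxp3 and Ctla4 lay above that of Cd3e and those of the other 8 genes below it. At 3 months those of Il2ra, Ikzf2 and Tigit lay below that of Cd3e and those of the other 7 above it.

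**Figure D3:**
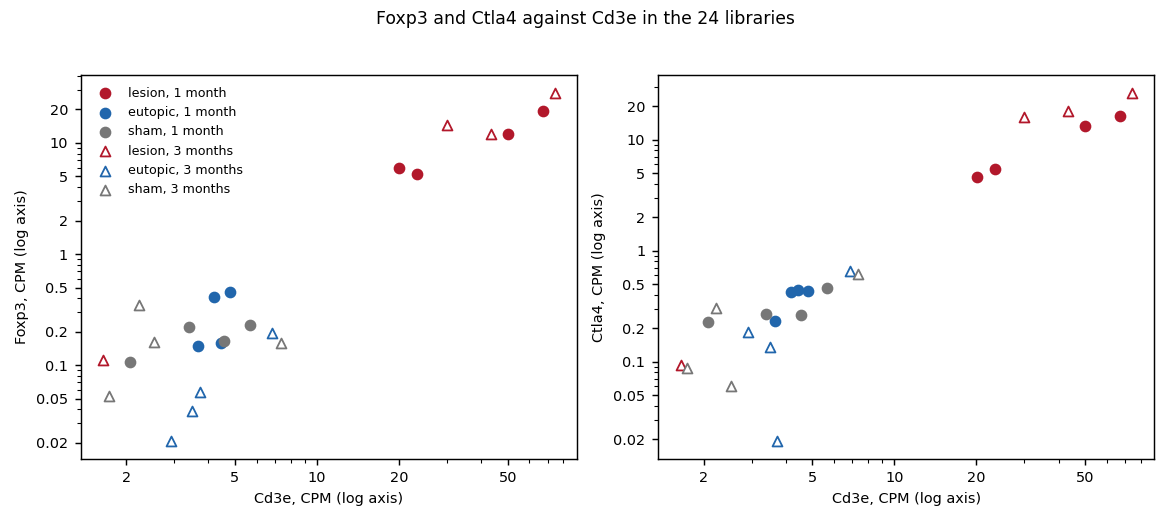
Foxp3 (left) and Ctla4 (right) against Cd3e in all 24 libraries, in CPM on log axes, for lesions (red), eutopic uterus (blue) and sham uterus (grey) at 1 month (filled circles) and 3 months (open triangles). Lesion libraries other than library 1 at 3 months lie at the upper right, and that library lies among the uterine ones.

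The relation to Cd3e was then measured within each library as the ratio of the 2 read counts, on which library size has no bearing. Ratios of different genes are not comparable with each other, since gene length was not used. Lesions and eutopic uterus were compared with an exact two-sided permutation test over libraries, with 4 against 4, for which the smallest p is 0.0286. Of the 20 tests, 8 had an unadjusted p under 0.05, each at that smallest p. These p-values were not adjusted for the number of tests. With 8 of 20 at the smallest p, none would stay under 0.05 after Benjamini-Hochberg adjustment.

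Foxp3 was higher relative to Cd3e in lesions at both times. At 1 month there were 29.6, 24.2, 22.4 and 28.5 Foxp3 reads per 100 Cd3e reads in lesions, against 3.56, 9.72, 4.07 and 9.41 in eutopic uterus. At 3 months there were 6.82, 27.4, 48.8 and 38.0 in lesions, against 1.55, 0.714, 1.10 and 2.85 in eutopic uterus. No lesion library overlapped the eutopic range at either time, and this includes lesion library 1 at 3 months, where the value rests on 6 Foxp3 reads. The mean log2 ratio was higher in lesions by 2.06 at 1 month and by 3.88 at 3 months (exact permutation p = 0.0286 for each, the smallest possible). In sham uterus the ratio was 3.65 to 6.47 reads per 100 Cd3e reads at 1 month and 2.14 to 15.8 at 3 months, so 1 sham library at 3 months exceeded lesion library 1.

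Ctla4 moved in the same direction against Cd3e. There were 22.8, 26.6, 23.4 and 24.4 Ctla4 reads per 100 Cd3e reads in lesions at 1 month, against 9.88, 10.1, 6.33 and 9.06 in eutopic uterus. At 3 months there were 5.68, 41.4, 53.1 and 35.6 in lesions, against 0.518, 6.43, 3.87 and 9.59 in eutopic uterus. The 4 lesion libraries at 1 month were nearly equal and clear of the eutopic range, and at 3 months lesion library 1 lay inside it. The mean log2 ratio was higher in lesions by 1.45 at 1 month (exact permutation p = 0.0286) and differed by 2.79 at 3 months (exact permutation p = 0.0857). Foxp3 and Ctla4 were the 2 of 10 genes whose ratio to Cd3e was higher in every lesion library than in every eutopic library at 1 month, as it was for 0.463% of all genes. At 3 months Foxp3 was the 1 gene of 10, against 0.957% of all genes.

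Tigit was lower relative to Cd3e in lesions at both times. There were 27.9, 27.6, 42.0 and 26.8 Tigit reads per 100 Cd3e reads in lesions at 1 month, against 75.5, 76.5, 66.1 and 64.5 in eutopic uterus. At 3 months there were 11.4, 27.1, 37.5 and 39.9 in lesions, against 67.9, 116, 75.1 and 77.7 in eutopic uterus. No lesion library reached the eutopic range at either time. The mean log2 ratio of Tigit was lower in lesions, with differences of -1.21 at 1 month and -1.64 at 3 months (exact permutation p = 0.0286 for each).

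A lower ratio to Cd3e in lesions was common among all genes. At 1 month 4 of the 10 genes (Tigit, Ikzf2, Il2ra and Tnfrsf18) had a lower ratio in every lesion library than in every eutopic library, as had 91.1% of all genes tested. At 3 months Tigit was the 1 gene of 10, against 8.92% of all genes, and with lesion library 1 set aside the share of all genes was 88.5%. A lower ratio to Cd3e therefore does not set these genes apart from other genes.

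Ikzf2, Il2ra and Tnfrsf18 were lower relative to Cd3e in lesions at 1 month. Ikzf2 had 229, 82.9, 186 and 102 reads per 100 Cd3e reads in lesions, against 755, 689, 935 and 693 in eutopic uterus (log2 difference -2.47, exact permutation p = 0.0286). Il2ra had 64.6, 49.8, 39.5 and 47.1 in lesions, against 100, 74.9, 81.9 and 69.0 in eutopic uterus (log2 difference -0.70, exact permutation p = 0.0286). Tnfrsf18 had 21.4, 20.8, 27.7 and 20.4 in lesions, against 32.8, 44.5, 52.9 and 37.3 in eutopic uterus (log2 difference -0.88, exact permutation p = 0.0286). For each of these 3 genes the 2 groups did not overlap at 1 month. At 3 months the groups overlapped for all 3, with log2 differences of -2.04 for Ikzf2 (exact permutation p = 0.114), -0.21 for Il2ra (0.314) and -0.21 for Tnfrsf18 (0.714). The Il2ra difference at 1 month was -0.42 (exact permutation p = 0.171) when the sum of Cd3e, Cd3d and Cd3g took the place of Cd3e.

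For Icos, Pdcd1, Lag3 and Cd274 the ratio to Cd3e overlapped between lesions and eutopic uterus at both times. Icos had 41.0 to 50.5 reads per 100 Cd3e reads in lesions at 1 month, against 28.9 to 57.5 in eutopic uterus (log2 difference 0.05, exact permutation p = 0.857). Pdcd1 had 16.4 to 41.8 in lesions, against 21.7 to 41.8 in eutopic uterus (log2 difference -0.42, exact permutation p = 0.286), and Lag3 had 26.8 to 44.2 in lesions, against 30.4 to 79.6 in eutopic uterus (-0.54, exact permutation p = 0.171). Cd274 had 122 to 271 in lesions, against 172 to 221 in eutopic uterus (-0.22, exact permutation p = 0.457). At 3 months the log2 differences were 0.20 for Icos, 0.33 for Pdcd1, 0.01 for Lag3 and 0.54 for Cd274, with exact permutation p of 0.457, 0.686, 0.971 and 0.0571. In lesion library 1 at 3 months Pdcd1 stood at 175 reads per 100 Cd3e reads, against 33.7 to 65.6 in the other 3 lesion libraries. These tests with 4 libraries a group do not show that the ratios were equal.

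With lesion library 1 at 3 months set aside, 3 against 4 libraries allow no p below 0.0571. The remaining 3 lesion libraries then lay above every eutopic library in their ratio to Cd3e for Foxp3 (log2 difference 4.47), Ctla4 (3.49), Cd274 (0.67) and Icos (0.41), which is 4 of 10 genes against 1.34% of all genes. They lay below it for Ikzf2 (-2.83) and Tigit (-1.26), which is 2 of 10 against 88.5% of all. The ranges overlapped for Il2ra, Tnfrsf18, Pdcd1 and Lag3.

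**Figure D4:**
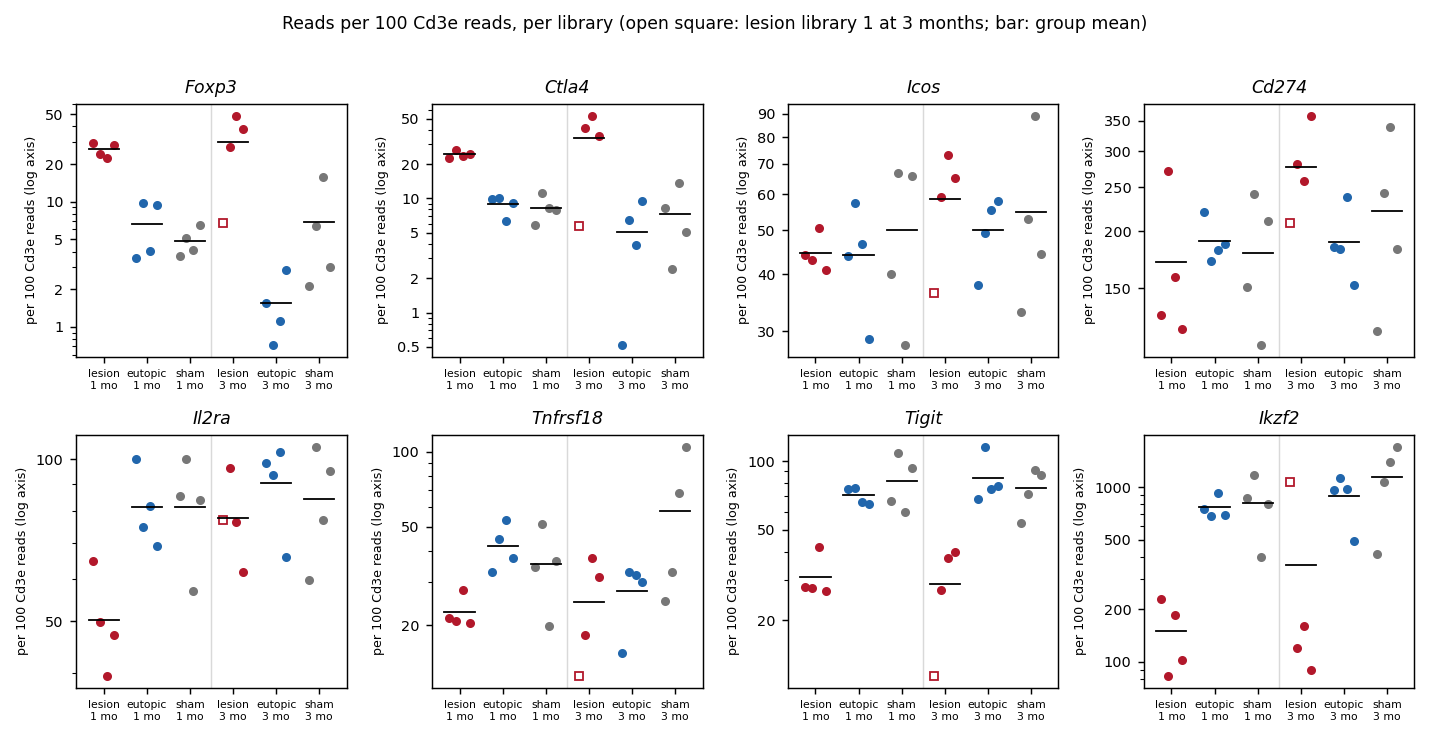
Reads per 100 Cd3e reads on a log axis for Foxp3, Ctla4, Icos and Cd274 (top) and Il2ra, Tnfrsf18, Tigit and Ikzf2 (bottom), in 4 libraries per group of lesion (red), eutopic uterus (blue) and sham uterus (grey). Bars are group means and the open square is lesion library 1 at 3 months; Foxp3 lies higher and Tigit lower in all lesion libraries than in eutopic uterus of the same time.

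The genes whose log2 CPM most resembled that of Foxp3 over the 8 lesion libraries were Tnfsf8 (Pearson r = 0.998), Cd28 (0.998), Ccl8 (0.997), Gimap3 (0.996) and Tspan32 (0.995) out of 13812 genes ranked. Tnfsf8 encodes the CD30 ligand, Cd28 a costimulatory receptor of T cells and Ccl8 a chemokine. Of the 10 genes followed here, Ctla4 ranked 16, Tnfrsf18 18, Icos 19 and Tigit 60, whereas Il2ra ranked 269, Ikzf2 442, Cd274 578, Lag3 1051 and Pdcd1 2156. Cd3e ranked 95. The 8 libraries share their differences in T cell RNA, and lesion library 1 at 3 months is low for nearly all T cell genes. Over the other 7 lesion libraries Tnfsf8 had an r of 0.981 and Cd28 of 0.981, but the first 5 genes were Cd4, Ppm1h, Rhoh, Samsn1 and Fbxl12, and r with Foxp3 was 0.943 for Ctla4, 0.896 for Cd3e and 0.864 for Cd274.

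Partner genes of the same pathways were read from 4 lists, whose counts describe them and do not test them as sets. Of all genes tested, 12.0% were called higher in lesions than in eutopic uterus at 1 month and 23.4% at 3 months. The share was 6.54% at 1 month without lesion library 2. At 3 months it was 9.44% in the fit of only the compared groups and 25.1% without lesion library 1. Of 21 core T cell genes, Cd3e included, 19 were called higher and 0 lower in lesions than in eutopic uterus at 1 month, and 20 higher and 1 lower at 3 months. The list's median log2 fold change was 2.88 at 1 month and 3.00 at 3 months, and Lef1, a transcription factor also expressed in epithelium and stroma, was the gene called lower (-2.14 ± 0.37). Cd4, the coreceptor of helper and regulatory T cells, had a mean of 47.0 ± 25.9 CPM (SD, n = 4) in 1 month lesions, with 3.02 ± 1.25 CPM in the eutopic libraries. The lesion-eutopic difference of Cd4 was 3.96 ± 0.71 log2 units at 1 month (edgeR adjusted p = 0.00152) and 4.47 ± 0.73 at 3 months (edgeR adjusted p = 0.000119). Cd5, Trac and Il7r had log2 fold changes of 4.38, 3.76 and 4.0 at 1 month and 4.01, 3.87 and 5.22 at 3 months. Without lesion library 2 at 1 month, 16 of these 21 genes were called higher at 1 month, and in the fit of only the compared groups 8 were called higher and 1 lower at 3 months.

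Of 24 other genes tied to regulatory T cells, 11 were called higher and 1 lower at 1 month, and 14 higher and 2 lower at 3 months, with medians of 0.94 and 1.16 log2 units. The shares of all genes called higher were 12.0% and 23.4%. Izumo1r, which encodes folate receptor 4 of regulatory T cells, ranged over 2.41 to 11.1 CPM in 1 month lesions, with 0.193 to 0.348 CPM in the eutopic libraries. Its log2 fold change was 4.49 ± 0.69 at 1 month (edgeR adjusted p = 0.000589) and 5.37 ± 0.73 at 3 months (edgeR adjusted p = 2.55e-05). Lesion library 1 at 3 months also lay above eutopic uterus, with 122 Izumo1r reads beside 6 Foxp3 and 88 Cd3e reads. That library held 22990 CPM of ovary markers, and the source of its Izumo1r reads was not tested. The chemokine receptor genes Ccr4 and Ccr8 rose by 4.23 ± 0.86 and 4.52 ± 0.99 log2 units at 1 month (edgeR adjusted p = 0.00313 and 0.00473) and by 3.70 ± 0.85 and 6.00 ± 1.09 at 3 months (0.00186 and 0.000285). Tgfb1, a cytokine gene of many cell types, rose by 1.23 ± 0.24 and 1.94 ± 0.25 log2 units (edgeR adjusted p = 0.00255 and 1.28e-05). Areg, which encodes an epidermal growth factor receptor ligand that the uterine epithelium also makes, was called lower at both times (-2.54 ± 0.83 and -3.37 ± 0.87 log2 units), and Gpr83 was called lower at 3 months (-2.30 ± 0.75). Without lesion library 2 at 1 month, 8 of the 24 were called higher and 0 lower at 1 month. At 3 months 18 were called higher and 2 lower without lesion library 1, and 6 higher and 1 lower in the fit of only the compared groups.

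Of 22 checkpoint ligands and other checkpoint receptors, 12 were called higher at 1 month and 16 at 3 months, and 0 lower, with medians of 1.62 and 2.03 log2 units. The shares of all genes called higher were 12.0% and 23.4%. Pdcd1lg2, which encodes PD-L2, the other PD-1 ligand, ranged over 1.88 to 8.53 CPM in 1 month lesions, with 0.232 to 0.386 CPM in the eutopic libraries. It rose by 4.12 ± 0.94 log2 units at 1 month (edgeR adjusted p = 0.00568) and by 6.17 ± 1.04 at 3 months (edgeR adjusted p = 0.00015). Icosl, the gene of the ICOS ligand, rose by 1.16 ± 0.21 and 1.22 ± 0.21 log2 units (edgeR adjusted p = 0.00132 and 0.000153), and its lesion libraries lay at 29.7 to 61.2 CPM at 3 months, against 15.0 to 20.3 CPM in eutopic uterus. The inhibitory receptor genes Btla and Cd200r1 rose by 2.55 ± 0.52 and 2.84 ± 0.61 log2 units at 1 month (edgeR adjusted p = 0.00336 and 0.00418). Without lesion library 2 at 1 month, 8 of the 22 were called higher at 1 month, and in the fit of only the compared groups 8 were at 3 months.

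Of 12 helper T cell genes, 6 were called higher at 1 month and 9 at 3 months, and 0 lower, against 12.0% and 23.4% of all genes called higher. The medians were 1.93 and 1.96 log2 units, which were the same when Il21 was set at its lower bound. Cxcr5, the chemokine receptor of follicular helper T cells and B cells, rose by 6.36 ± 0.94 log2 units at 1 month (edgeR adjusted p = 0.000471) and by 7.25 ± 1.00 at 3 months (edgeR adjusted p = 2.7e-05). Ccr6 rose by 5.45 ± 1.01 and 5.85 ± 1.05, and Cxcr3 by 2.46 ± 0.61 and 2.50 ± 0.61 log2 units. Il21, a cytokine gene of follicular helper T cells, had 105 reads in the 4 lesion libraries at 1 month and 137 at 3 months, and 0 in the eutopic libraries of either time. Against a floor of 3 counts over the eutopic group, Il21 was at least 40.3-fold higher in lesions at 1 month and at least 49.0-fold higher at 3 months. Without lesion library 2 at 1 month, 4 of the 12 were called higher at 1 month, and in the fit of only the compared groups 2 were at 3 months.

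**Figure D5:**
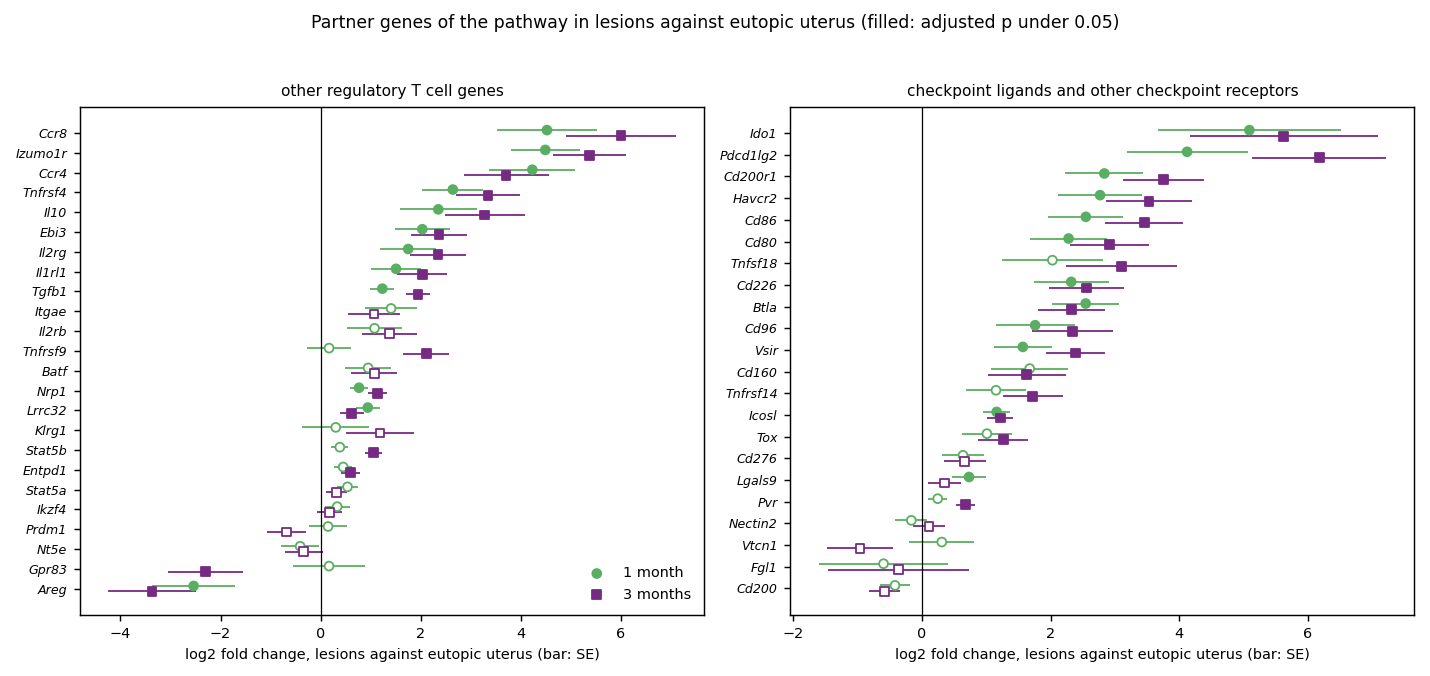
Log2 fold changes of lesions against eutopic uterus at 1 month (green circles) and 3 months (purple squares), with SE, for 24 other regulatory T cell genes (left) and 22 checkpoint ligands and other checkpoint receptors (right). Filled points have an adjusted p under 0.05; Ccr8 and Izumo1r lie at the top of the left panel and Areg at its foot, with Pdcd1lg2 near the top of the right panel.

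Markers of several other cell types moved with these genes, where 12.0% of all genes were called higher at 1 month and 23.4% at 3 months. The 6 B cell markers summed to 36.2 to 179 CPM in lesions at 1 month, against 3.56 to 7.68 CPM in eutopic uterus, and 6 of 6 were called higher at each time. The 6 macrophage markers summed to 606 to 1421 CPM in lesions at 1 month, against 226 to 303 CPM in eutopic uterus, with 6 of 6 called higher at each time, and the 6 dendritic cell markers to 217 to 459 CPM, against 158 to 179 CPM, with 4 of 6 called higher. Markers of lymph node stroma and high endothelium summed to 62.6 to 196 CPM in lesions at 1 month, against 32.9 to 51.2 CPM in eutopic uterus, and 3 of 6 were called higher and 1 lower. The 6 natural killer cell markers were called in 0 of 6 cases at both times by edgeR, and 0 of 6 had an unadjusted p under 0.05. They summed to 64.4 to 78.7 CPM in lesions at 1 month, against 69.0 to 88.8 CPM in eutopic uterus. Lesion library 1 at 3 months was lowest of its group for the B cell, macrophage, dendritic and natural killer sums as it was for Foxp3. The part of these cells in the levels of the 10 genes was not tested.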

How the data were processed

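Total RNA of 24 libraries was sequenced. The deposited table holds raw read counts per gene with no normalization, per the file header and the values. Per the submitters' processing notes, bcl2fastq 1.9.0, STAR 2.7.9a, edgeR and the mm39 build were used; no source used here gives their order, the annotation or the use of strand. The 10 genes and all lists were chosen with earlier results of these data known.

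Counts were fitted with edgeR 4.0.16 (R 4.3.3; TMM, filterByExpr, quasi-likelihood, group means). Each SE is the log2 fold change divided by the square root of its F statistic, and 95% intervals take a normal distribution. Lesion comparisons used all 24 libraries and uterine comparisons the 16 uterine ones, with Benjamini-Hochberg adjustment over all genes tested. CPM uses TMM library sizes of all 24 libraries. Ratios are log2((count + 0.5)/(Cd3e count + 0.5)), tested by exact permutation in SciPy 1.17.1. Code was tested on simulated data. Exon lengths and promoters came from GENCODE vM21 and RefSeq (GRCm38.p6), matched by ID and symbol, and no mm39 coordinate was used. No pair of libraries in a group agreed within sampling noise (chi-square per degree of freedom 20.2 to 1155 over 36 pairs).

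All 10 genes and Cd3e are named. In lesions against eutopic uterus all have fold changes; elsewhere Foxp3, Ctla4, Cd274 and genes called are given and the rest by range. From each list up to 4 genes called at both times in lesions against eutopic uterus are named, by the smallest sum of adjusted p. Alternatives were DESeq2 1.42.0, limma voom 3.58.1, other scaling, no low-count filter, fits of only the compared groups, a replicate block, another pseudocount (5), the sum of 3 CD3 genes and leaving out each library; leaving out lesion libraries 1 and 2 at 3 months together was added after seeing the data.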

Additional observations from a re-analysis of the deposited data

Results flagged for a closer look

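In 126 groups of 4 libraries, 7 values stood far from the other 3 of their group by Dixon's criterion at its 95% critical value, where chance flags about 1 in 20 groups. In CPM these were Ctla4 in 1 eutopic library at 1 month (0.232, low), Ikzf2 in 1 lesion library at 1 month (68.6, high), Ikzf2 in 1 eutopic library at 1 month (28.9, low) and Cd3e in 1 sham library at 3 months (7.35, high). Per 100 Cd3e reads they were Ikzf2 in lesion library 1 at 3 months (1069, high), and Tnfrsf18 (27.7, high) and Tigit (42.0, high), both in lesion library 3 at 1 month.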

How the results depend on the processing

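Depth left 1 to 27 Foxp3 reads per uterine library, so fold changes against uterus are imprecise for Foxp3. With 4 libraries a group, no unpaired exact permutation test of a ratio can fall below p = 0.0286. Were same-numbered libraries taken as 4 pairs, an exact permutation test by sign flips could not fall below p = 0.125. No ratio could then pass 0.05 in that exact permutation test. Of the counts of genes called, 129 alternative values stayed equal to or within 1.5 times the main one and 3 did not. The 129 include every value of the comparisons over time and of eutopic against sham uterus. There 0 genes were called in the main fit and 0 in each alternative, so these values say nothing of the stability of the calls in lesions. For lesions against eutopic uterus at 3 months, 5 genes were called in the fit of only the compared groups, against 9.44% of all genes. With a replicate block 1 was called there, and it was not Foxp3. For lesions against sham uterus at 3 months the block called 0 of the 10 and 0 of all genes. At 1 month the block called 10 of 10 higher than in eutopic uterus, and 18.5% of all genes. At 3 months the block left 1.53% of all genes called higher in lesions than in eutopic uterus, with 0 of 21 core T cell genes, 1 of 24 other regulatory T cell genes, 1 of 22 checkpoint genes and 2 of 12 helper genes, and Cd3e at 2.62 log2 units (edgeR adjusted p = 0.179). Same-numbered lesion and eutopic libraries correlated weakly (r 0.07 to 0.19 at 1 month, 0.00 to 0.34 at 3 months), and every library correlated best with its own number at 1 month but not at 3 months, so the numbers were not taken as pairs. Leaving out each library in turn gave 7 to 9 genes (1 month) and 8 to 10 (3 months) against eutopic uterus, 7 to 9 and 8 to 10 against sham uterus, and 0 in the other comparisons. The shares of all genes called higher in these fits were 6.54% to 11% (1 month) and 19.8% to 25.1% (3 months) against eutopic uterus. Against sham uterus they were 4.9% to 9.37% and 19.6% to 24.4%. For lesions at 3 months against 1 month, 5.11% to 17% of all genes were called in either direction.

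Differences that were not called changed sign as follows, and the cause was not tested. Lesions at 3 months against 1 month with the block gave -0.31 for Foxp3 and -0.075 for Ctla4, and with each library left out -0.26 to 0.82 for Foxp3 and -0.060 to 1.28 for Cd274. Ctla4 in eutopic against sham uterus at 3 months ran between -1.23 and 0.71. Log2 ratios to the sum of 3 CD3 genes were 0.035 for Il2ra and 0.030 for Tnfrsf18 at 3 months and 0.059 for Cd274 at 1 month, and Lag3 at 3 months was -0.0099 with a pseudocount of 5. With each library left out, ratios ran between -0.46 and 0.061 for Tnfrsf18, -0.17 and 0.62 for Pdcd1 and -0.28 and 0.32 for Lag3 at 3 months, and between -0.14 and 0.19 for Icos at 1 month. Ctla4 at 3 months with a pseudocount of 5 (2.18) and Cd274 at 3 months against the CD3 sum (0.78) reached the smallest exact p, 0.0286.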
